A study of Homo sapiens with 18 samples.

Results

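The genes described here are 39 heat shock protein and chaperone genes, chosen by symbol in the GENCODE 29 annotation from 58051 gene rows. They cover the cytosolic HSP70, HSP110 and HSP90 chaperones, the mitochondrial chaperones, J-domain proteins, HSP70 and HSP90 co-chaperones, 2 genes with small heat shock protein names, the heat shock factors HSF1 and HSF2, and 7 subunits of the chaperonin TRiC. Of the 39, 37 passed a filter on low counts that left 15055 genes in all. HSPA1A and HSPA1B did not pass it.

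The cells were KBM7, an established chronic myelogenous leukaemia line, grown without any genetic change named in the labels and treated for 5 h. The 6 groups of 3 libraries each received the solvent DMSO, THZ531 at 600 nM, or 1 of the 4 coded compounds of the dCeMM series at 10 times its EC50. The labels add a hit number to each code, Hit4 standing for dCeMM-1, Hit1 for dCeMM-2, Hit2 for dCeMM-3 and Hit8 for dCeMM-4. As background, dCeMM-1 brings about the degradation of RBM39, a protein of the splicing machinery, and the other three dCeMM compounds that of cyclin K. THZ531 binds covalently to CDK12 and CDK13 and blocks these kinases, whose activity depends on cyclin K. Every library comes from one cell line, and the labels do not say whether the 3 libraries of a group are separate cultures, so the p-values measure only the spread between these libraries.

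Chaperones bind proteins that are unfolded or partly folded and help them reach or keep their native form. HSP70 works in a cycle in which J-domain proteins deliver the substrate and start ATP hydrolysis, and nucleotide exchange factors such as the HSP110 and BAG proteins release it. HSP90 takes over late-folding clients, many of them kinases, with the help of co-chaperones. The transcription factor HSF1 drives the stress-induced part of this gene group by binding heat shock elements, which are repeats of the bases GAA in alternating orientation.

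Heat shock elements were searched in the RefSeq window from 250 bases before to 50 bases after each annotated start (GRCh38.p14), on both strands. The 2-unit element was GAANNTTC or TTCNNGAA, and the 3-unit element was GAANNTTCNNGAA or TTCNNGAANNTTC, so that each 3-unit match also holds overlapping 2-unit matches. Windows were at hand for 35 of the 39 genes. Of these 35, 18 had a 2-unit element (51.4%) and 7 had a 3-unit element (20%). Over all 27305 genes with a window the shares were 16.2% and 0.608%. A gene can have several windows, and a match in any of them was counted. Per window the shares were 35.8% and 13.2% of the 53 windows of these genes, against 13.5% and 0.49% of all 35116. The 7 genes with a 3-unit element were HSPA8, HSP90AA1, HSP90AB1, HSPD1, DNAJA1, DNAJB6 and CHORDC1. The longest runs follow for genes whose values the results turn on, with the element in capitals, read 5′ to 3′ on the strand of the gene.
HSPA8: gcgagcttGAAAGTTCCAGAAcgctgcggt
HSPA8: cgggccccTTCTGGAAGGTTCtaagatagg
HSP90AA1: gagggttcTTCCGGAAGGTTCgggaggctt
HSP90AB1: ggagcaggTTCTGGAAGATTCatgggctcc
HSP90AB1: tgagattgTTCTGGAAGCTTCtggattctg
HSPD1: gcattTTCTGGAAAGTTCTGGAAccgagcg
DNAJA1: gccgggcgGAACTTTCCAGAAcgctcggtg
CHORDC1: ccgGAAAATTCGCGAAGGTTCCTGAAacgc
Those of HSPA8 lie at chr11:123062345-123062374 and chr11:123062170-123062199, 230 and 55 bases before the start. That of HSP90AA1 lies at chr14:102087111-102087140, 88 bases before the start, and those of HSP90AB1 at chr6:44247770-44247799 and chr6:44247823-44247852. The stretch of HSPD1 is at chr2:197500061-197500090, that of DNAJA1 at chr9:33025268-33025297, just after the start, and that of CHORDC1 at chr11:90223083-90223112. Capitals in HSPD1 and CHORDC1 span overlapping 3-unit matches.

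DNAJB1 and the paired genes HSPA1A and HSPA1B, which are classical heat-induced genes, held 2-unit elements only, and are shown for comparison.
HSPA1A: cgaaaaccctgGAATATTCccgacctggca
HSPA1B: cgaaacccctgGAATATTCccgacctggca
DNAJB1: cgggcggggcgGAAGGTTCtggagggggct
DNAJB1: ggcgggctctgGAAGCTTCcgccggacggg
The sites of HSPA1A (chr6:31815426-31815455) and HSPA1B (chr6:31827622-31827651) begin 106 and 105 bases before the start, and those of DNAJB1 (chr19:14518456-14518485 and chr19:14518426-14518455) 77 and 47 bases before it. A further DNAJB1 match, in chr19:14517918-14517947, begins at base 2 counted from another annotated start, at chr19:14517937, and is not printed. No match of either element was found in the windows of BAG3, HSPH1, DNAJA2 or HSF2, which says only that these letters are not in those windows. A match is a description of the sequence and not evidence of binding.

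HSPA1A, at chr6:31815464-31817946, plus strand, and HSPA1B, at chr6:31827735-31830255, plus strand (GRCh38), were nearly without counts. HSPA1A had 2 counts over all 18 libraries, 1 each in replicates 1 and 3 of dCeMM-1. HSPA1B had 0 counts in every library, where a count of 0 allows up to 3 counts, or between 0.167 and 0.652 CPM (counts per 1000000 gene counts) depending on the depth of the library, for counting error only. The gene counts hold no read that maps to more than 1 place, and 71.3% of the 2476 distinct 50-base stretches of HSPA1A transcripts also occur in HSPA1B. Both genes failed the filter on low counts and are given no fold change. Whether shared sequence lowered their counts was not tested, so the counts are not taken as a measure of the inducible HSP70 mRNA.

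Depth ranged from 4598576 to 17943571 gene counts per library, with DMSO replicate 3 the shallowest. All 8 markers of haematopoietic cells fixed for the check of the cell type were above 1 CPM in DMSO, with a summed level of 887 to 1487 CPM over the 18 libraries. Of 4 T cell markers, CD3D was at 72.9 CPM in DMSO and CD3E at 1.87 CPM, and the list summed to 64.8 to 155 CPM. Markers of B cells, fibroblasts and epithelium summed to at most 9.61, 4.85 and 1.62 CPM, with DCN, KRT5 and KRT14 at 0. Added spike-in RNA made up 0.179% ± 0.01997 of the counts in DMSO and 0.531% ± 0.0992 with THZ531, 0.542% ± 0.0699 with dCeMM-3, 0.512% ± 0.0784 with dCeMM-2, 0.176% ± 0.0193 with dCeMM-1 and 0.234% ± 0.0497 with dCeMM-4 (SD, n = 3). Fold changes are therefore given on 2 scales. The TMM scale is relative to the bulk of the other genes, and the spike-in scale is relative to the added RNA. Whether equal spike-in went to equal numbers of cells or to equal masses of RNA is not given in the labels, and on this scale fewer cells and less RNA per cell cannot be told apart. Where no scale is named, levels in CPM and log2 fold changes are on the TMM scale, and the 3 values of a group are its replicates 1, 2 and 3 in that order.

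The 39 genes together took 2.24% to 2.29% of all gene counts in the DMSO libraries. Their share was 1.77% to 1.84% with dCeMM-1, 1.17% to 1.22% with dCeMM-2, 0.828% to 0.837% with dCeMM-3, 1.87% to 1.97% with dCeMM-4 and 1.14% to 1.16% with THZ531. Every treated library lay below every DMSO library. With dCeMM-3 the mean share was 36.9% of that in DMSO, the lowest of the 5 compounds, and with dCeMM-4 it was 84.7%, the highest. The share is of unscaled counts and weighs each gene by its abundance, so it does not measure the 39 genes alike. With dCeMM-4 the median log2 fold change of the 37 genes that passed the filter was 0.02 on the TMM scale. Mitochondrially encoded transcripts took 12.9% ± 2.25 of the gene counts with dCeMM-3 and 5.14% ± 0.662 in DMSO (SD, n = 3, exact two-sided permutation p = 0.1, the smallest possible), and with these left out of the total the share was 2.38% in DMSO and 0.955% with dCeMM-3.

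**Figure D1:**
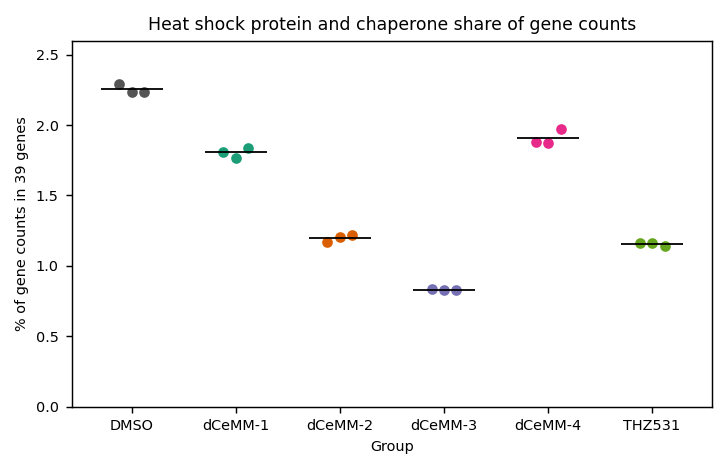
Share of all gene counts (%, vertical axis from 0) held by the 39 genes in each of the 18 libraries (points) by group, with the group mean as a line. The dCeMM-3 libraries sit between 0.828% and 0.837%, and all treated libraries lie below the lowest DMSO library at 2.24%.

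HSPA8 was the most abundant of the genes per base of exon in DMSO, at 1324 ± 32.7 CPM per kb (SD, n = 3, TMM scale). HSP90AB1 followed at 637 ± 6.24, HSP90AA1 at 454 ± 36.3 and DNAJA1 at 218 ± 6.62 CPM per kb. The lowest were DNAJB4 at 4.70 ± 1.02 and DNAJB6 at 3.45 ± 0.115 CPM per kb. Among the 36 pairs of neighbours in this order, the values of 16 pairs overlapped between libraries, among them HSPA14 and HSF1 (31.5 ± 1.65 and 31.0 ± 1.70) and DNAJA2 and STUB1 (21.0 ± 0.995 and 20.9 ± 0.477). None of the first 5 genes in the order overlapped its next neighbour.

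Relative to the other genes, most of the chaperone mRNAs fell with dCeMM-2, dCeMM-3 and THZ531, by a smaller amount with dCeMM-1, and in both directions with dCeMM-4. With dCeMM-3, 30 of 37 fell and 6 rose on the TMM scale (edgeR quasi-likelihood test, Benjamini-Hochberg adjustment over all 15055 genes, threshold 0.05), where 45.1% of all genes were called lower and 35.9% higher. Their median log2 fold change was -0.86, against -0.15 over all genes and -0.38 over protein-coding genes. With THZ531, 27 fell and 5 rose (background 43.7% and 35.8%), with a median of -0.60 against -0.10 and, over protein-coding genes, -0.31. With dCeMM-2, 24 fell and 9 rose (background 41.2% and 37.1%), with a median of -0.49 against -0.02 and -0.21 in the same order. With dCeMM-1, 26 fell and 1 rose (background 14.8% and 16.5%), with a median of -0.28 against 0.03 and 0.02. With dCeMM-4, 10 fell and 12 rose (background 35.3% and 32.9%), with a median of 0.02 against 0.01 and -0.05. With dCeMM-4 the higher calls made up a share near the background and the lower calls a smaller one. The 5 comparisons share the same DMSO libraries. With THZ531, 9 rose in place of 5 when DESeq2 or its size factors set the scale, or when only THZ531 and DMSO were fitted.

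HSPA4, HSPA4L, HSP90AA1, HSPD1, DNAJB1, CCT2, CCT3 and CCT4 fell with all 5 compounds on the TMM scale. How many of all genes share this or the other joint pattern given here was not counted, so neither is shown to be particular to these genes. The fall of HSPA4 with dCeMM-1 was lost without DMSO replicate 1 (adjusted p = 0.118) and without dCeMM-1 replicate 1 or 2. Those of HSPD1 with dCeMM-4 and THZ531 and of CCT4 with dCeMM-4 were lost with the size factors of DESeq2 (adjusted p = 0.28, 0.714 and 0.319). In a fit of THZ531 and DMSO alone HSPD1 turned direction, at 0.0038 (adjusted p = 0.955). HSPB1, HSPB11, CDC37 and CCT7 rose with dCeMM-2, dCeMM-3 and THZ531 on the TMM scale, and each of them fell with the same 3 compounds on the spike-in scale.

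All 37 genes fell with dCeMM-2, dCeMM-3 and THZ531 on the spike-in scale, where 83%, 83.7% and 84.7% of all genes were called lower and 1.48%, 1.12% and 1.32% higher. Their medians were -2.27, -2.69 and -2.44, against -1.80, -1.96 and -1.94 over all genes. With dCeMM-4, 22 fell and 2 rose (background 48% and 6.3%), and without dCeMM-4 replicate 1 only 12 fell. With dCeMM-1, edgeR called 1 gene lower and 0 higher (background 1.34% and 2.83%), DESeq2 gave the same counts, and 5 genes were lower and 1 higher at an unadjusted p under 0.05. The 1 gene was FKBP4, and that call was lost without DMSO replicate 2 (adjusted p = 0.149) and without 7 other libraries left out singly.

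**Figure D2:**
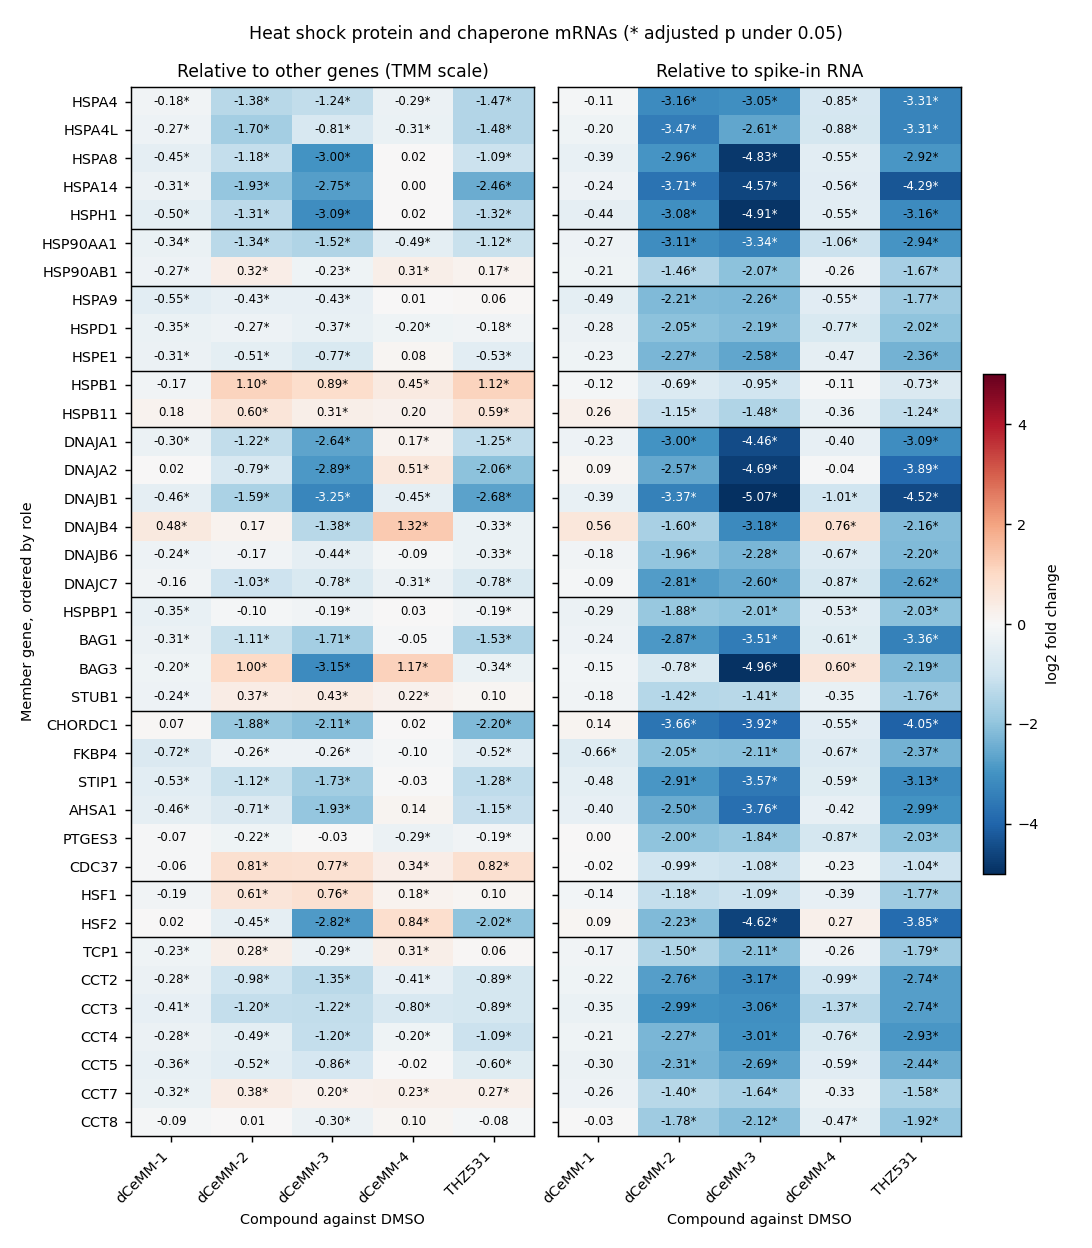
Log2 fold change of each of the 37 genes (rows, grouped by role) for each compound against DMSO (columns), on the TMM scale (left) and the spike-in scale (right), with values printed and an asterisk where the adjusted p was under 0.05. On the TMM scale the strongest falls lie in the dCeMM-3 column, down to -3.25 for DNAJB1, and on the spike-in scale the columns of dCeMM-2, dCeMM-3 and THZ531 are negative throughout.

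All 5 measured cytosolic HSP70 and HSP110 genes fell with dCeMM-1, dCeMM-2, dCeMM-3 and THZ531 on the TMM scale, with medians of -0.31, -1.38, -2.75 and -1.47. Over all genes 14.8%, 41.2%, 45.1% and 43.7% were called lower, in the same order. HSPA8, at chr11:123057489-123063230, minus strand, encodes the constitutive cytosolic HSP70 and holds both of the 3-unit elements shown above. HSPA8 stood at 6558, 6451 and 6246 CPM in DMSO, 4706, 4531 and 4845 with dCeMM-1, 2862, 2826 and 2815 with dCeMM-2, 749, 869 and 786 with dCeMM-3, 6454, 6369 and 6710.4 with dCeMM-4, and 3285, 2951 and 2837 with THZ531. The 3 dCeMM-3 libraries were the lowest of the 18, and the dCeMM-4 libraries overlapped those of DMSO. It fell by 3.00 with dCeMM-3 (SE 0.06, adjusted p = 1.50e-31), to 12.5% of the DMSO level, and by 1.18 with dCeMM-2 and 1.09 with THZ531. Its value with dCeMM-4 was 0.02 (SE 0.06, adjusted p = 0.775).

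HSPH1, an HSP110 that acts as a nucleotide exchange factor of HSP70, had a like profile. HSPH1 was at 667, 598 and 626 CPM in DMSO, 450.3, 430.3 and 452 with dCeMM-1, 244, 274 and 246 with dCeMM-2, 75.2, 73.4 and 73.7 with dCeMM-3, 658, 634 and 629 with dCeMM-4, and 274, 247 and 235 with THZ531. As for HSPA8, dCeMM-3 gave the lowest libraries and dCeMM-4 overlapped DMSO. Its log2 fold change was -3.09 (SE 0.07, adjusted p = 2.75e-31) with dCeMM-3, -1.31 with dCeMM-2, -1.32 with THZ531 and -0.50 with dCeMM-1. With dCeMM-4 it was 0.02 (SE 0.06, adjusted p = 0.759), and with the size factors of DESeq2 0.15 (adjusted p = 0.0383).

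HSPA14, an HSP70 bound to ribosomes, was at 88.2, 79.8 and 81.8 CPM in DMSO, 67.0, 64.0 and 70.6 with dCeMM-1, 23.8, 22.1 and 19.3 with dCeMM-2, 13.3, 11.2 and 12.3 with dCeMM-3, 82.5, 81.7 and 86.4 with dCeMM-4, and 16.99, 15.8 and 12.7 with THZ531. Its libraries were low with all of dCeMM-2, dCeMM-3 and THZ531, and overlapped DMSO with dCeMM-4. It fell by 2.75 with dCeMM-3 (SE 0.10, adjusted p = 1.93e-25) and by 2.46 with THZ531 (SE 0.09, adjusted p = 5.76e-24). HSPA4 and HSPA4L, which are further HSP110 family members, fell with dCeMM-4 also, by 0.29 and 0.31. For HSPA4L the order of the compounds was different, with -1.70 for dCeMM-2, -0.81 for dCeMM-3 and -1.48 for THZ531.

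All 6 J-domain genes fell with dCeMM-3 and with THZ531 on the TMM scale (background 45.1% and 43.7% lower), with medians of -2.01 and -1.01. The fall of DNAJB4 with THZ531, by 0.33, was lost without DMSO replicate 1 (adjusted p = 0.407), without THZ531 replicate 2 or 3, and with DESeq2 (adjusted p = 0.232). DNAJB1, at chr19:14514770-14529770, minus strand, is the main partner of HSP70 in dissolving aggregates and is strongly heat-induced. DNAJB1 was at 235, 220.3 and 204 CPM in DMSO, 163, 159 and 160.2 with dCeMM-1, 73.6, 72.7 and 73.1 with dCeMM-2, 21.8, 26.4 and 21.9 with dCeMM-3, 162, 165 and 157 with dCeMM-4, and 33.7, 33.8 and 35.9 with THZ531. All treated libraries lay below DMSO, those of dCeMM-3 and THZ531 furthest. It had the deepest fall of the group with both compounds, by 3.25 with dCeMM-3 (SE 0.08, adjusted p = 1.70e-30) and by 2.68 with THZ531 (SE 0.07, adjusted p = 3.86e-28), to 10.5% and 15.6% of DMSO. With dCeMM-2 it fell by 1.59, with dCeMM-1 by 0.46 and with dCeMM-4 by 0.45.

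DNAJA1 and DNAJA2, the type A J-domain proteins of the cytosol, fell with dCeMM-3 by 2.64 and 2.89. With dCeMM-4 they rose on the TMM scale, by 0.17 (SE 0.06, adjusted p = 0.00863) and 0.51 (SE 0.08, adjusted p = 4.82e-07). Neither was called with dCeMM-4 on the spike-in scale, at -0.40 and -0.04, although without dCeMM-4 replicate 2 DNAJA1 was called lower there, at -0.53 (adjusted p = 0.0313). DNAJA2 differed between dCeMM-2 and THZ531 in value, at -0.79 and -2.06, but these doses are not matched and the difference was not tested.

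DNAJB4, a stress-inducible J-domain protein, was the gene of the group with the largest rise. Its single 2-unit element lay 98 bases before the annotated start at chr1:78004939, and the window of its start at chr1:77979175 held none. DNAJB4 was at 21.4, 13.7 and 18.2 CPM in DMSO, 22.9, 24.9 and 26.0 with dCeMM-1, 21.8, 20.1 and 16.8 with dCeMM-2, 7.10, 5.18 and 7.71 with dCeMM-3, 45.4, 42.7 and 44.0 with dCeMM-4, and 15.3, 13.2 and 13.4 with THZ531. Its dCeMM-4 libraries lay above all others and its dCeMM-3 libraries below all others. With dCeMM-4 it rose by 1.32 on the TMM scale (SE 0.12, adjusted p = 1.06e-12) and by 0.76 on the spike-in scale (SE 0.23, adjusted p = 0.00182). It was the 1 gene that rose with dCeMM-1, by 0.48 (SE 0.12, adjusted p = 0.00185), on the TMM scale only, and without DMSO replicate 2 this was 0.28 (adjusted p = 0.09). Its value with dCeMM-2 was 0.17 (SE 0.13, adjusted p = 0.218), and 0.38 without DMSO replicate 1 (adjusted p = 0.012). DNAJB6, which suppresses aggregation, moved less, by at most 0.44 with dCeMM-3, and DNAJC7 fell by 1.03 with dCeMM-2 and by 0.78 with THZ531.

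BAG3, at chr10:119651370-119677819, plus strand, is an exchange factor of HSP70 that directs clients to autophagy and is itself a target of HSF1. It gave the widest spread between compounds of all 37 genes. BAG3 was at 56.4, 54.6 and 55.6 CPM in DMSO, 49.1, 51.3 and 44.2 with dCeMM-1, 107, 117 and 109 with dCeMM-2, 5.19, 6.74 and 7.07 with dCeMM-3, 126, 131 and 117 with dCeMM-4, and 44.7, 42.3 and 44.6 with THZ531. The dCeMM-2 and dCeMM-4 libraries were all above DMSO, the dCeMM-3 libraries all below, and neither set overlapped any DMSO library. It rose on the TMM scale with dCeMM-2 by 1.00 (SE 0.08, adjusted p = 1.41e-14) and with dCeMM-4 by 1.17 (SE 0.08, adjusted p = 2.26e-16), and fell with dCeMM-3 by 3.15 (SE 0.10, adjusted p = 3.00e-26), to 11.3% of DMSO. On the spike-in scale it fell with THZ531 by 2.19, with dCeMM-3 by 4.96 and with dCeMM-2 by 0.78. It rose with dCeMM-4 by 0.60 on that scale (SE 0.21, adjusted p = 0.0106), a call lost without DMSO replicate 1 (adjusted p = 0.0659) and without dCeMM-4 replicate 2 (adjusted p = 0.103). With THZ531 its TMM value was -0.34 (SE 0.08, adjusted p = 2.76e-04), and -0.15 when only THZ531 and DMSO were fitted (adjusted p = 0.0808).

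BAG1, another exchange factor of HSP70, fell by 1.71 with dCeMM-3, 1.53 with THZ531 and 1.11 with dCeMM-2, and with dCeMM-4 its value was -0.05 (SE 0.07, adjusted p = 0.529). STUB1, the ubiquitin ligase CHIP that tags clients of HSP70 and HSP90, rose on the TMM scale with dCeMM-2 by 0.37 and with dCeMM-3 by 0.43, and fell with both on the spike-in scale, by 1.42 and 1.41. Of its exon bases, 42.4% overlap JMJD8 on the opposite strand, and the strand setting of the counting is not given in the sources used here. HSPBP1, an exchange factor that also inhibits CHIP, stayed within -0.35 to 0.03 with all 5 compounds.

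**Figure D3:**
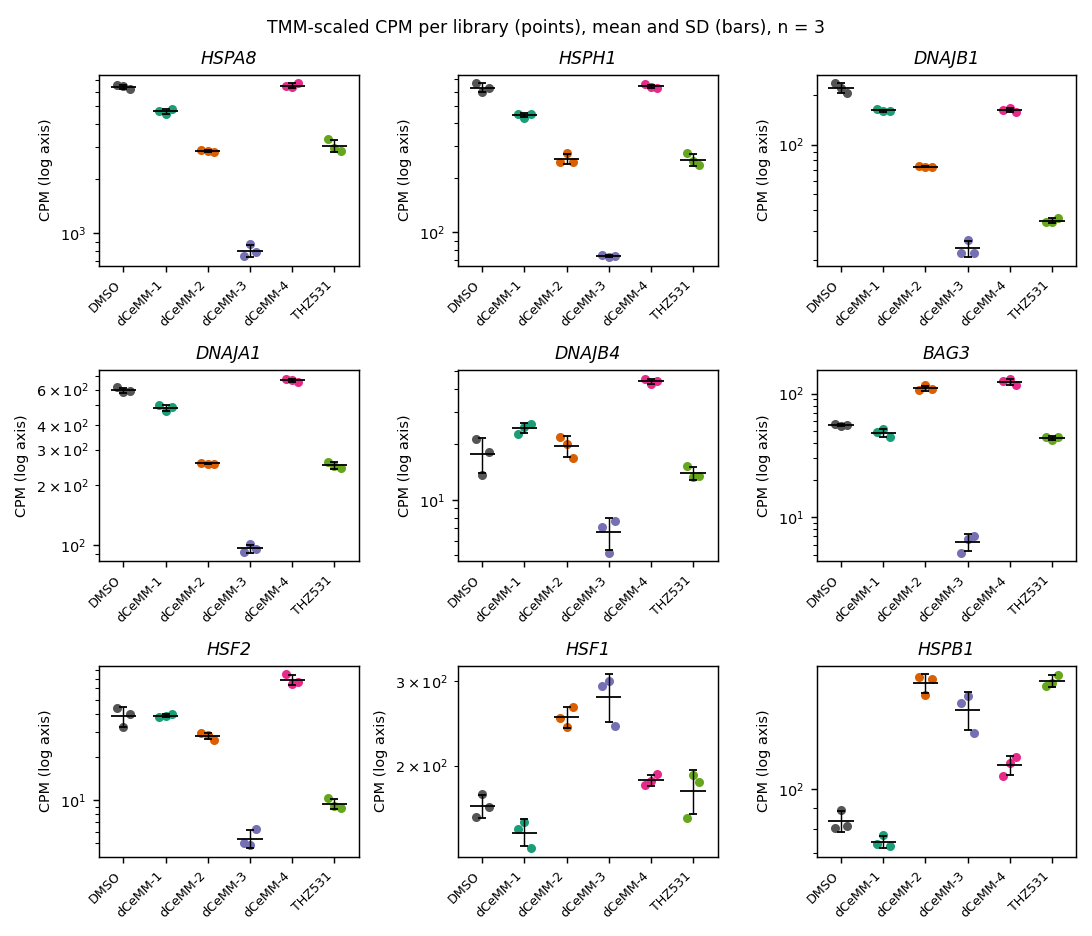
TMM-scaled CPM (log axis) of 9 genes in each library (points) by group, with the mean as a line and the SD as a bar (n = 3). The dCeMM-3 points of BAG3 lie at 5.19 to 7.07 CPM, against 107 to 117 with dCeMM-2 and 117 to 131 with dCeMM-4, and those of HSPA8 lie at 749 to 869 CPM.

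The 2 cytosolic HSP90 genes went in opposite directions on the TMM scale with dCeMM-2, dCeMM-4 and THZ531. On that scale both fell with dCeMM-1 and dCeMM-3. HSP90AA1, the stress-inducible form, was at 2596, 2227 and 2329.6 CPM in DMSO, 1949.7, 1759.7 and 1949 with dCeMM-1, 937, 966 and 929 with dCeMM-2, 808, 839.7 and 848 with dCeMM-3, 1805, 1648 and 1641 with dCeMM-4, and 1239, 1048 and 1008 with THZ531. Every treated library lay below every DMSO library. It fell by 1.52 with dCeMM-3 (SE 0.07, adjusted p = 4.97e-22), 1.34 with dCeMM-2, 0.49 with dCeMM-4, 1.12 with THZ531 and 0.34 with dCeMM-1.

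HSP90AB1, the constitutive form, was at 1917, 1898 and 1880.2 CPM in DMSO, 1564, 1546 and 1603 with dCeMM-1, 2401, 2389.5 and 2332 with dCeMM-2, 1549, 1733 and 1567 with dCeMM-3, 2307, 2311 and 2418 with dCeMM-4, and 2307, 2039 and 2077 with THZ531. Its libraries were above DMSO with dCeMM-2, dCeMM-4 and THZ531 and below DMSO with dCeMM-1 and dCeMM-3. It rose on the TMM scale by 0.32 with dCeMM-2 (SE 0.06, adjusted p = 4.34e-06) and by 0.31 with dCeMM-4 (SE 0.06, adjusted p = 1.34e-05), and on the spike-in scale it was -1.46 and -0.26, the latter not called. The fall with dCeMM-3, by 0.23 (SE 0.06, adjusted p = 4.10e-04), was lost with the size factors of DESeq2, at -0.07 (adjusted p = 0.312). With THZ531 the rise by 0.17 was lost without THZ531 replicate 1, at 0.10 (adjusted p = 0.128). Of the 50-base stretches of HSP90AB1, 16.6% also occur in other genes, most of them in the pseudogene HSP90AB3P.

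Of the 6 HSP90 co-chaperones, 5 fell with dCeMM-2 and THZ531 (background 41.2% and 43.7% lower) and 4 with dCeMM-3 (background 45.1%). CDC37 rose with all 3 compounds on the TMM scale. CHORDC1, an HSP90-binding protein whose window held the longest run of heat shock element units of those shown, was at 152, 126 and 143 CPM in DMSO, 148, 139 and 152 with dCeMM-1, 34.6, 39.1 and 40.6 with dCeMM-2, 32.7, 28.0 and 36.1 with dCeMM-3, 146, 138 and 142 with dCeMM-4, and 29.1, 30.7 and 31.6 with THZ531. Its dCeMM-2, dCeMM-3 and THZ531 libraries lay far below the rest, and the dCeMM-1 and dCeMM-4 libraries overlapped DMSO. It fell by 2.20 with THZ531 (SE 0.09, adjusted p = 7.08e-24), 2.11 with dCeMM-3 (SE 0.08, adjusted p = 1.05e-23) and 1.88 with dCeMM-2 (SE 0.08, adjusted p = 7.07e-22). With dCeMM-1 it was 0.07 (SE 0.08, adjusted p = 0.538) and with dCeMM-4 0.02 (SE 0.08, adjusted p = 0.848).

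FKBP4, an immunophilin of steroid receptor complexes, was at 331, 319 and 323 CPM in DMSO, 202, 199.5 and 190.1 with dCeMM-1, 254, 262 and 296 with dCeMM-2, 275, 299 and 235 with dCeMM-3, 305, 305 and 296 with dCeMM-4, and 218, 227 and 233 with THZ531. Its fall with dCeMM-1 was the deepest of the 37 genes with that compound, and its dCeMM-1 libraries lay below those of every other group. It fell by 0.72 with dCeMM-1 (SE 0.07, adjusted p = 2.11e-10) and by 0.52 with THZ531 (SE 0.07, adjusted p = 1.27e-08). Its fall with dCeMM-3, by 0.26, was lost with the size factors of DESeq2, at -0.10 (adjusted p = 0.19).

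STIP1, the adaptor that hands clients from HSP70 to HSP90, fell by 0.53, 1.12, 1.73 and 1.28 with dCeMM-1, dCeMM-2, dCeMM-3 and THZ531. AHSA1, which activates the ATPase of HSP90, fell by 0.46, 0.71, 1.93 and 1.15 in the same order. With dCeMM-4 STIP1 was -0.03 (SE 0.06, adjusted p = 0.685) and AHSA1 0.14 (SE 0.07, adjusted p = 0.0696). The AHSA1 value with dCeMM-4 passed the threshold with the size factors of DESeq2, at 0.26 (adjusted p = 0.00112), and without dCeMM-4 replicate 1, dCeMM-3 replicate 2 or dCeMM-3 replicate 3 (lowest adjusted p = 0.0392). PTGES3, the co-chaperone p23, had values between -0.29 and -0.03. In a fit of dCeMM-3 and DMSO alone its value with dCeMM-3 was 0.19 (adjusted p = 0.038), and its falls with dCeMM-2 and THZ531 were lost without DMSO replicate 1 (adjusted p = 0.0575 and 0.108) and with DESeq2 (adjusted p = 0.0554 and 0.509).

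CDC37 brings kinase clients to HSP90. CDC37 was at 107, 119 and 114 CPM in DMSO, 109.5, 117 and 99.2 with dCeMM-1, 203, 189.7 and 201 with dCeMM-2, 199, 215 and 167 with dCeMM-3, 137, 151 and 141 with dCeMM-4, and 193, 198 and 207 with THZ531. Its libraries with dCeMM-2, dCeMM-3, dCeMM-4 and THZ531 all lay above DMSO. It rose on the TMM scale by 0.81 with dCeMM-2, 0.82 with THZ531, 0.77 with dCeMM-3 and 0.34 with dCeMM-4 (adjusted p from 2.07e-12 to 1.53e-04), and on the spike-in scale it was -0.99, -1.04, -1.08 and -0.23 in the same order, the last not called.

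The heat shock factors went in opposite directions on the TMM scale with dCeMM-2 and dCeMM-3. HSF1, the main activator of heat shock genes, was at 156, 174 and 163 CPM in DMSO, 148, 153 and 134 with dCeMM-1, 251, 241 and 265 with dCeMM-2, 294, 300.1 and 242 with dCeMM-3, 182, 186 and 192 with dCeMM-4, and 156, 191 and 185 with THZ531. Its libraries lay above DMSO with dCeMM-2, dCeMM-3 and dCeMM-4, below it with dCeMM-1, and overlapped DMSO with THZ531. It rose by 0.61 with dCeMM-2 (SE 0.08, adjusted p = 3.31e-09) and 0.76 with dCeMM-3 (SE 0.08, adjusted p = 1.39e-11), and on the spike-in scale it fell with both, by 1.18 and 1.09. With dCeMM-4 the rise by 0.18 (SE 0.08, adjusted p = 0.0367) was lost without DMSO replicate 1 (adjusted p = 0.153), DMSO replicate 3, dCeMM-4 replicate 2 or dCeMM-4 replicate 3. With THZ531 it was 0.10 (SE 0.08, adjusted p = 0.209), and 0.26 with the size factors of DESeq2 (adjusted p = 0.00308), and it passed the threshold without THZ531 replicate 1 also (adjusted p = 0.0431).

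HSF2, a related factor that forms complexes with HSF1, was at 44.0, 32.1 and 39.5 CPM in DMSO, 38.0, 38.6 and 39.98 with dCeMM-1, 29.2, 28.3 and 26.3 with dCeMM-2, 5.06, 4.87 and 6.28 with dCeMM-3, 75.2, 64.8 and 66.1 with dCeMM-4, and 10.3, 9.12 and 8.83 with THZ531. The dCeMM-4 libraries lay above all others, and the dCeMM-3 and THZ531 libraries below all others. It fell by 2.82 with dCeMM-3 (SE 0.13, adjusted p = 3.08e-22), 2.02 with THZ531 (SE 0.12, adjusted p = 9.91e-19) and 0.45 with dCeMM-2 (SE 0.10, adjusted p = 1.26e-04), and rose by 0.84 with dCeMM-4 (SE 0.09, adjusted p = 2.41e-10) on the TMM scale. Its spike-in value with dCeMM-4 was 0.27 and was not called.

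TRiC is the ring-shaped chaperonin that folds actin and tubulin. Of the 7 of its subunit genes among the 39, 6 fell with dCeMM-1 and dCeMM-3 (background 14.8% and 45.1% lower). With dCeMM-2 and THZ531, 4 fell (background 41.2% and 43.7% lower), and the subunits did not move as one. CCT2, CCT3 and CCT4 fell with all 5 compounds on the TMM scale. CCT3 was at 592, 570.2 and 575 CPM in DMSO, 438, 432 and 439 with dCeMM-1, 248, 237 and 274 with dCeMM-2, 247, 271 and 229 with dCeMM-3, 323, 332 and 342 with dCeMM-4, and 319, 313 and 305 with THZ531. All its treated libraries lay below DMSO. It fell by 0.80 with dCeMM-4 (SE 0.06, adjusted p = 1.88e-14), the deepest fall of the 37 genes with that compound, by 1.20 with dCeMM-2 and by 1.22 with dCeMM-3. The fall of CCT4 with dCeMM-4, by 0.20, was lost without DMSO replicate 1 (adjusted p = 0.0866) and with the size factors of DESeq2 (adjusted p = 0.319).

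TCP1, the alpha subunit, was at 472, 441 and 441 CPM in DMSO, 391, 379.9 and 386 with dCeMM-1, 528, 555 and 566 with dCeMM-2, 371, 368 and 372 with dCeMM-3, 567, 565 and 542 with dCeMM-4, and 469.7, 482 and 459 with THZ531. Its dCeMM-2 and dCeMM-4 libraries lay above DMSO and its dCeMM-1 and dCeMM-3 libraries below. It rose on the TMM scale by 0.28 with dCeMM-2 (SE 0.06, adjusted p = 1.81e-05) and 0.31 with dCeMM-4 (SE 0.06, adjusted p = 6.67e-06), and fell by 0.29 with dCeMM-3 (SE 0.06, adjusted p = 1.57e-05), a fall that was -0.12 with the size factors of DESeq2 (adjusted p = 0.0537). CCT7 rose on the TMM scale with dCeMM-2, dCeMM-4 and THZ531, by 0.38, 0.23 and 0.27, and was -1.40, -0.33 and -1.58 on the spike-in scale. With dCeMM-3 its rise by 0.20 was lost without dCeMM-3 replicate 2 (adjusted p = 0.071). CCT8 was 0.01 (SE 0.06, adjusted p = 0.927) with dCeMM-2. Exons of TCP1 overlap ACAT2, and those of CCT5 overlap an antisense gene over 30.1% of their bases.

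The 3 mitochondrial chaperones fell with dCeMM-1, dCeMM-2 and dCeMM-3 on the TMM scale (background 14.8%, 41.2% and 45.1% lower), by at most 0.77. HSPD1, the mitochondrial HSP60, was at 655, 622 and 598 CPM in DMSO, 497, 467 and 513 with dCeMM-1, 490.5, 531 and 537 with dCeMM-2, 454, 493 and 507 with dCeMM-3, 543, 543 and 544 with dCeMM-4, and 586, 543 and 524 with THZ531. HSPE1, its partner HSP10, was at 62.8, 54.5 and 54.2 CPM in DMSO, 44.8, 46.2 and 48.0 with dCeMM-1, 36.5, 42.7 and 42.5 with dCeMM-2, 33.3, 36.7 and 31.5 with dCeMM-3, 59.9, 60.9 and 61.9 with dCeMM-4, and 40.6, 37.5 and 41.4 with THZ531. HSPD1 libraries lay below DMSO with every compound, and those of HSPE1 overlapped DMSO with dCeMM-4. HSPD1 fell by 0.35, 0.27, 0.37, 0.20 and 0.18 with the coded compounds in the order of their numbers and THZ531 last. With the size factors of DESeq2 its values with dCeMM-4 and THZ531 were -0.08 (adjusted p = 0.28) and -0.03 (adjusted p = 0.714). In a fit of dCeMM-3 and DMSO alone the value of HSPD1 was -0.14 (adjusted p = 0.125), and in one of THZ531 and DMSO alone it was 0.0038. HSPE1 fell by 0.77 with dCeMM-3 (SE 0.08, adjusted p = 1.21e-10) and by 0.53 with THZ531. The 2 genes lie head to head and share exon bases on opposite strands.

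HSPA9, the mitochondrial HSP70, was at 660.0, 639.8 and 625 CPM in DMSO, 442, 438 and 439.7 with dCeMM-1, 478, 497 and 456 with dCeMM-2, 454, 502 and 475 with dCeMM-3, 652, 645 and 648 with dCeMM-4, and 764, 619 and 619 with THZ531. Its libraries lay below DMSO with dCeMM-1, dCeMM-2 and dCeMM-3. It fell by 0.55 with dCeMM-1 (SE 0.06, adjusted p = 2.70e-08), and with THZ531 it was 0.06 (SE 0.06, adjusted p = 0.429), or 0.21 with the size factors of DESeq2 (adjusted p = 0.00462).

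HSPB1, the small heat shock protein HSP27, was at 80.6, 89.2 and 81.5 CPM in DMSO, 73.5, 77.3 and 72.7 with dCeMM-1, 187, 169.5 and 185 with dCeMM-2, 161, 168 and 137 with dCeMM-3, 108, 116 and 119.6 with dCeMM-4, and 178, 181 and 189 with THZ531. Its dCeMM-2, dCeMM-3, dCeMM-4 and THZ531 libraries all lay above DMSO. On the TMM scale it rose by 1.10 with dCeMM-2 (SE 0.07, adjusted p = 1.45e-16), 0.89 with dCeMM-3, 0.45 with dCeMM-4 and 1.12 with THZ531 (SE 0.07, adjusted p = 6.99e-17). It fell with dCeMM-2, dCeMM-3 and THZ531 on the spike-in scale, by 0.69, 0.95 and 0.73, which were the smallest falls of the 37 genes on that scale with each of these compounds. HSPB11, a small heat shock protein by name that works in intraflagellar transport, rose on the TMM scale by 0.60 with dCeMM-2 and 0.59 with THZ531, and was -1.15 and -1.24 on the spike-in scale. Its rise with dCeMM-3, by 0.31, was lost without DMSO replicate 2 (adjusted p = 0.125) or dCeMM-3 replicate 1 (adjusted p = 0.192).

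The cyclin K degraders were given at the same multiple of EC50, so the 3 pairs among dCeMM-2, dCeMM-3 and dCeMM-4 were compared directly, with p-values adjusted over all genes within a pair. On the TMM scale, of 37 genes, 25 were higher with dCeMM-2 than with dCeMM-3 and 3 were lower (background 26.6% and 16.5%). The difference was 4.15 (95% interval 3.93 to 4.37) for BAG3, 2.37 (95% interval 2.09 to 2.65) for HSF2, 2.10 (95% interval 1.88 to 2.32) for DNAJA2 and 1.82 (95% interval 1.69 to 1.96) for HSPA8. These 4 were higher on the spike-in scale too, by 4.18, 2.40, 2.12 and 1.87. On that scale 15 were higher and 1 was lower (background 18.4% and 4.32%). The 3 lower genes were HSPA4L, at -0.89 (95% interval -1.06 to -0.73), DNAJC7, at -0.26 (95% interval -0.41 to -0.10), and PTGES3, whose call was lost without dCeMM-2 replicate 1 (adjusted p = 0.104), dCeMM-2 replicate 2, dCeMM-3 replicate 1 or dCeMM-3 replicate 3. With DESeq2 or its size factors 5 were lower. Of the 9 not called, HSF1 was at -0.14 (95% interval -0.31 to 0.02) and was called without dCeMM-3 replicate 3, at -0.23 (adjusted p = 0.00911). Among the others were FKBP4, at 0.00 (95% interval -0.15 to 0.15), HSPA9, at 0.00 (95% interval -0.14 to 0.14), CCT3, at 0.02 (95% interval -0.11 to 0.16), and CDC37, at 0.03 (95% interval -0.13 to 0.19).

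Against dCeMM-4, 24 genes were lower with dCeMM-2 and 5 higher (background 38.9% and 38.4%), and 30 were lower with dCeMM-3 and 5 higher (background 41.2% and 41.5%, and 3 higher without a filter). On the spike-in scale all 37 were lower with dCeMM-2 and with dCeMM-3 than with dCeMM-4 (background 66.8% and 65.3% lower, 2.63% and 5.35% higher). The widest TMM difference between dCeMM-3 and dCeMM-4 was that of BAG3, -4.31 (95% interval -4.53 to -4.10), followed by HSF2, -3.66 (95% interval -3.92 to -3.40), and DNAJA2, -3.40 (95% interval -3.61 to -3.19). Between dCeMM-2 and dCeMM-4 it was that of HSPA14, -1.93 (95% interval -2.13 to -1.73), followed by CHORDC1, -1.90 (95% interval -2.08 to -1.72). BAG3 differed little between dCeMM-2 and dCeMM-4, at -0.17 (95% interval -0.33 to -0.01) with an adjusted p of 0.0355, a call lost without any one of dCeMM-2 replicates 1 and 3 and dCeMM-4 replicates 1 and 2 (highest adjusted p = 0.12). HSP90AB1 and TCP1 were not called between dCeMM-2 and dCeMM-4, at 0.02 (95% interval -0.11 to 0.14) and -0.02 (95% interval -0.14 to 0.10). The dose of THZ531 is not a stated multiple of its EC50, so its values stand beside the others without a test.

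**Figure D4:**
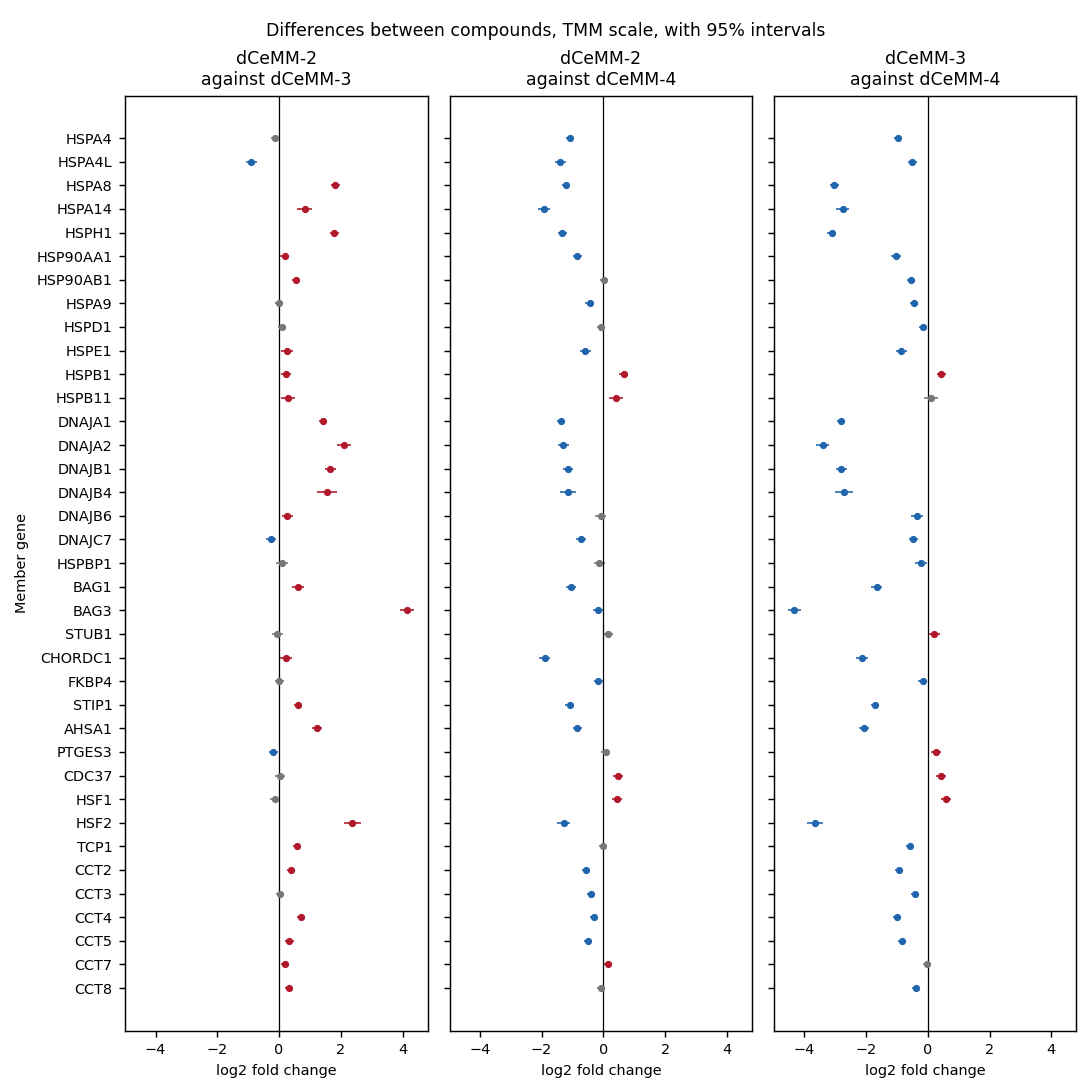
Log2 difference between compounds (horizontal axis, TMM scale) for each of the 37 genes (rows) with 95% intervals, for the 3 pairs given at the same multiple of EC50. Red and blue points are higher and lower at an adjusted p under 0.05, and grey points are not called. BAG3 lies furthest out, at 4.15 between dCeMM-2 and dCeMM-3 and at -4.31 between dCeMM-3 and dCeMM-4.

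The changes split by heat shock element are given as a description, and a link between the element and the falls was not tested. With dCeMM-3 the 7 genes with such an element had a median log2 fold change of -1.52 on the TMM scale, against -1.20 for the 25 others that were tested and matched a window by symbol. With dCeMM-2 the medians were -1.18 and -0.51, with THZ531 -1.09 and -0.78, with dCeMM-1 -0.30 and -0.28, and with dCeMM-4 0.02 and 0.02. Split by the 2-unit element, the medians with dCeMM-3 were -1.27 for 16 genes with it and -1.04 for 16 without. Among tested genes outside the 39, the 41 with a 3-unit element had a median of 0.05 with dCeMM-3, against -0.38 for the 10054 others. Chaperone genes of the further list described below were not taken out of these sets. HSPH1, BAG3, DNAJA2 and HSF2, which had no match in their windows, were among the deepest falls with dCeMM-3. So were DNAJB1, with 2-unit elements, and HSPA8 and DNAJA1, with 3-unit elements.

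All 37 genes were shorter than 100 kb, with spans of 1752 to 82059 bases and a median of 20716, against a median of 33221 over the 12332 protein-coding genes tested, of which 19.4% span 100 kb or more. With dCeMM-3 the 18 chaperone genes under 20 kb had a median log2 fold change of -0.81 on the TMM scale and the 19 longer ones -1.20, against -0.26 and -0.43 for protein-coding genes split the same way. With dCeMM-4 these medians were 0.09 and 0.00, against 0.05 and -0.10, and with THZ531 -0.56 and -0.78, against -0.24 and -0.33. The longer chaperone genes had the higher median with dCeMM-2, at -0.51 and -0.45, against -0.04 and -0.29. The same held with dCeMM-1, at -0.31 and -0.20, against -0.02 and 0.04. A link of span to the changes was not tested.

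A further list of 96 chaperone genes, of which 82 passed the filter, was counted in the same way. On the TMM scale 47 of the 82 fell and 22 rose with dCeMM-3 (background 45.1% and 35.9%), with a median of -0.55. With dCeMM-2, 46 fell and 23 rose (background 41.2% and 37.1%, median -0.37), and with THZ531, 49 fell and 19 rose (background 43.7% and 35.8%, median -0.34). With dCeMM-4, 32 fell and 32 rose (background 35.3% and 32.9%, median 0.02), and with dCeMM-1, 27 fell and 7 rose (background 14.8% and 16.5%, median -0.12). Of the 82, 78 fell on the spike-in scale with dCeMM-2 (background 83%) and with dCeMM-3 (83.7%), 77 with THZ531 (84.7%), 1 with dCeMM-1 (1.34%) and 44 with dCeMM-4 (48%). DNAJC4 rose with dCeMM-3 by 1.77 on the TMM scale (SE 0.10, adjusted p = 2.18e-19) and was -0.08 on the spike-in scale, where it was not called. The tail-anchored FKBP8, which binds HSP90, rose by 1.41 (SE 0.08) on the TMM scale with dCeMM-3 and fell by 0.43 on the spike-in scale. HSPA5, the HSP70 of the endoplasmic reticulum, fell by 1.90 with dCeMM-3 (SE 0.06, adjusted p = 3.36e-26), and DNAJC2, a ribosome-bound J-domain protein, by 2.66.

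With dCeMM-4, BAG5 rose by 1.12 (SE 0.08, adjusted p = 1.80e-15), BAG4 by 1.09 (SE 0.08) and BAG2 by 0.92 (SE 0.09) on the TMM scale. BAG5 and BAG4 also rose on the spike-in scale, by 0.56 and 0.54, and BAG2 was 0.36 and not called. BAG6, named after its value was seen, rose by 0.34 on the TMM scale and was -0.22 on the spike-in scale, where it was not called, and BAG1, one of the 37, was -0.05 (SE 0.07, adjusted p = 0.529) on the TMM scale. The J-domain genes DNAJC16 and DNAJC11 fell with dCeMM-4, by 3.13 (SE 0.13, adjusted p = 3.27e-22) and 2.35 (SE 0.08). With dCeMM-1, TOMM34, a co-chaperone of mitochondrial import, fell by 0.88 on the TMM scale (SE 0.09, adjusted p = 3.02e-09) and by 0.85 on the spike-in scale, where it was also called.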

How the data were processed

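Poly-A selected RNA of 18 KBM7 libraries was sequenced by the authors with added ERCC and SIRV RNA. The authors deposited 1 table of raw counts per library, with 92 ERCC and 7 SIRV rows and 5 HTSeq summary rows. HTSeq 0.11.2, Picard, STAR 2.5.2b, Trimmomatic 0.32 and the build GRCh38.p7 appear, without roles, in the submitters' processing notes. The annotation release, strand setting and use of molecular identifiers are not given in the sources used here. Summary rows held 34.2% to 50.5% of a library's counts and were left out of totals and tests. Gene names and spans come from GENCODE 29, which matched 57447 of 58051 rows and all 39 genes.

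Counts were fitted with edgeR 4.0.16 (glmQLFit with robust estimation, glmQLFTest, R 4.3.3) over all 18 libraries with 1 coefficient per group and 12 residual degrees of freedom, after filterByExpr by group. Libraries were scaled by TMM, or by summed spike-in counts. The 8 contrasts were 5 against DMSO and 3 between dCeMM-2, dCeMM-3 and dCeMM-4. Intervals are at 95% from the SE and a t distribution. The fit was tested on simulated data. Alternatives were DESeq2 1.42.0, its size factors, a replicate term, other filters, fits of the 2 groups compared, ERCC or SIRV alone and each library left out in turn. Group values of a library were compared by exact two-sided permutation tests, whose smallest p is 0.1 for 3 against 3. No 2 libraries of a group agreed within sampling noise. The chi-square of their counts per degree of freedom was lowest for THZ531 replicates 2 and 3, at 1.40. It was highest for THZ531 replicates 1 and 3, at 16.7.

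The genes, lists and rules were chosen with earlier results of these data known. Values in every library are given for 16 genes chosen by role and for the members with the 2 largest rises and the 2 largest falls with each compound. Of the further list, the genes eligible for naming are the 4 with the lowest adjusted p in each direction per compound at 5 CPM or more in the higher group.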

Additional observations from a re-analysis of the deposited data

Results flagged for a closer look

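Reads placed at several positions, which the gene counts leave out, took a larger part of the libraries with 3 compounds than in any DMSO library. They made up 28.3% ± 1.03 of all counted reads in DMSO, 37.4% ± 2.05 with THZ531, 41.0% ± 2.97 with dCeMM-3 and 36.0% ± 0.649 with dCeMM-2 (SD, n = 3, exact two-sided permutation p = 0.1 each, the smallest possible). Reads in no annotated gene made up 5.13% ± 0.405 in DMSO and lay above every DMSO library at 5.74% ± 0.301 with dCeMM-1, 7.46% ± 1.03 with dCeMM-2 and 8.28% ± 0.669 with dCeMM-4 (SD, n = 3). HSPA1A, HSPA1B and members with pseudogenes, such as HSP90AB1 and HSPD1, can lose reads to the first class. Its part in their values was not tested.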

How the results depend on the processing

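Counts of called genes moved by over 1.5 times in these cases. On the TMM scale, those higher with THZ531 were 9 in place of 5 with DESeq2, with its size factors and in a fit of the 2 groups compared. Those lower with dCeMM-2 than with dCeMM-3 were 5 in place of 3 with DESeq2 and with its size factors, and those higher with dCeMM-3 than with dCeMM-4 were 3 in place of 5 with no filter. On the spike-in scale with dCeMM-1, the fit of the 2 groups compared gave 1 higher in place of 0 and 4 lower in place of 1, and no filter gave 0 lower. With single libraries left out, the counts ranged from 0 to 1 higher with dCeMM-1 on the TMM scale (0 without DMSO replicate 2), and on the spike-in scale from 0 to 1 lower with dCeMM-1, from 1 to 2 higher with dCeMM-4 (1 without DMSO replicate 1 or dCeMM-4 replicate 2) and from 12 to 26 lower with dCeMM-4 (12 without dCeMM-4 replicate 1). Direction turned in the fit of the 2 groups compared for HSPBP1 (0.038) and PTGES3 (0.19) with dCeMM-3 and for HSPD1 with THZ531 (0.0038, main value -0.18), all on the TMM scale. The size factors of DESeq2 moved the median of all genes (log2 fold change) from -0.15 to 0.01 with dCeMM-3, from -0.10 to 0.06 with THZ531 and from 0.01 to 0.13 with dCeMM-4. The cause of these moves was not tested. Without mitochondrially encoded genes the share of counts held by the 39 genes was 2.38% in DMSO, 1.91% with dCeMM-1, 1.29% with dCeMM-2, 0.9555% with dCeMM-3, 2.03% with dCeMM-4 and 1.28% with THZ531. Requiring a 3-unit element left 7 genes of the 18 with a 2-unit element. Summing HSPA1A and HSPA1B gave no value, since the sum stayed under the filter. Of 5328 values of single genes with 1 library left out, 78 lost and 27 gained their call on the TMM scale, and 42 lost and 9 gained it on the spike-in scale. DMSO replicate 3 was the shallowest library, and what its depth did to genes at low counts was not tested. On the TMM scale the calls of DNAJB4 against DMSO moved without DMSO replicate 1 or 2 or THZ531 replicate 2 or 3.

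The labels do not say whether libraries of the same replicate number belong together. Correlations were taken over values centred on the group mean, which pulls their average towards 0, so they do not settle it. The correlation of same-numbered libraries over 45 pairs ranged from -0.144 to 0.125, and 9 of 18 libraries correlated best with one of their own number. For the 90 pairs of unlike number it ranged from -0.116 to 0.103. With a replicate block, 29 genes were lower with dCeMM-3 in place of 30 and 26 with THZ531 in place of 27 on the TMM scale, and 0 in place of 1 with dCeMM-1 on the spike-in scale.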
